A study of Mus musculus with 4 samples.

Results

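Antimicrobial and chitinase-like secreted proteins of mouse back skin are described here through 10 genes: Lcn2, Slpi, Defb1, Defb4, Defb6, Camp, Ltf, Chil1, Chil3 and Wfdc12. They were chosen by name, as all probe sets whose only platform gene symbol is 1 of these 10, which gave 11 of the 45101 probe sets on the array and 10 of the 18194 genes that have a probe set of their own. Defb1 had 2 probe sets and each other gene had 1. A further probe set named both Chil4 and Chil3 and was not counted.

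Back skin RNA was hybridised to 4 Affymetrix arrays: 2 hold wild type skin (labelled control) and 2 hold skin from K5-IKKbeta transgenic mice. The transgene places the gene of IKKbeta, a kinase that activates NF-kB, under the control of keratin K5 elements active in basal keratinocytes of the epidermis and the hair follicle. All mice were males of strain C57BL6 X DBA2 at 32 days of age, and each array held RNA pooled from 3 mice of its genotype. The labels do not name the transgenic line or say how many founders it came from. P-values therefore rest on 2 pools a group, not on single animals. The spread between pools (2 residual degrees of freedom) is combined with a spread estimated over all probe sets (4.46 prior degrees of freedom). Values are log2 expression per probe set, and a log2 fold change is K5-IKKbeta minus wild type. Tests used limma, adjusted p-values follow Benjamini-Hochberg over all probe sets, and a probe set is called at an adjusted p under 0.05. On the spread between pools alone, 0 of the 11 probe sets were called higher and 0 lower, and only 19 of all 45101 were called.

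Surface epithelia and the leukocytes that enter them secrete small proteins that kill or starve microbes. Beta-defensins (the Defb genes) and the cathelicidin Camp are cationic peptides that disrupt microbial membranes. Lcn2 and Ltf withhold iron, Lcn2 by binding bacterial siderophores and Ltf by binding iron itself. Slpi and Wfdc12 carry WAP domains, a fold of protease inhibitors, and Slpi inhibits serine proteases of neutrophils and mast cells. Chil1 and Chil3 are relatives of chitinases that bind sugar polymers without cleaving them. In skin, several of these genes are made by keratinocytes and others mainly by myeloid cells, and NF-kB and C/EBP factors are known regulators of Lcn2 and other members.

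The 4 arrays had medians of 6.91 to 6.96, and Pearson's correlation across probe sets was 0.996 between the wild type arrays and 0.994 between the K5-IKKbeta arrays. Of 5 probe sets for Ikbkb, the gene of the transgene, 3 were higher in K5-IKKbeta skin. The calls of 1426207_at and 1426333_a_at were lost when either wild type array was left out, and that of 1454184_a_at (log2 fold change 2.24) was kept. Defining genes of skin were high on all arrays: Krt14, a keratin of basal keratinocytes, measured 13.19 and 13.07 in wild type skin and 13.81 and 13.50 in K5-IKKbeta skin, and Col1a1, the main collagen of dermis, measured 14.28, 14.20, 14.44 and 14.58.

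K5-IKKbeta skin had more RNA of Chil1, Lcn2 and Slpi and less of Defb1. Chil1 was 9.71-fold higher, Lcn2 8.92-fold higher and Slpi 4.10-fold higher, while the brighter Defb1 probe set was 2.14-fold lower (n = 2 arrays a group). Chil3 also rose, but at values near background. Defb6, Defb4, Camp, Ltf and Wfdc12 did not pass the threshold. Over the 11 probe sets, 4 were called higher, against 10.4% of all probe sets, and 2 lower, against 5.88%; in either direction 6 of 11 were called, against 16.3% of all. By gene, each at its brightest probe set, 5 of 10 were called, against 20.9% of 18194 genes. The groups' arrays did not overlap for 8 of the 11, against 56.1% of all probe sets. The median log2 fold change was 0.11 over the 11 probe sets and 0.00 over all, and the median size of change was 0.75 against 0.17. Members were chosen with earlier results of these data known, so these counts describe the list and do not test whether it differs from other genes.

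**Figure D1:**
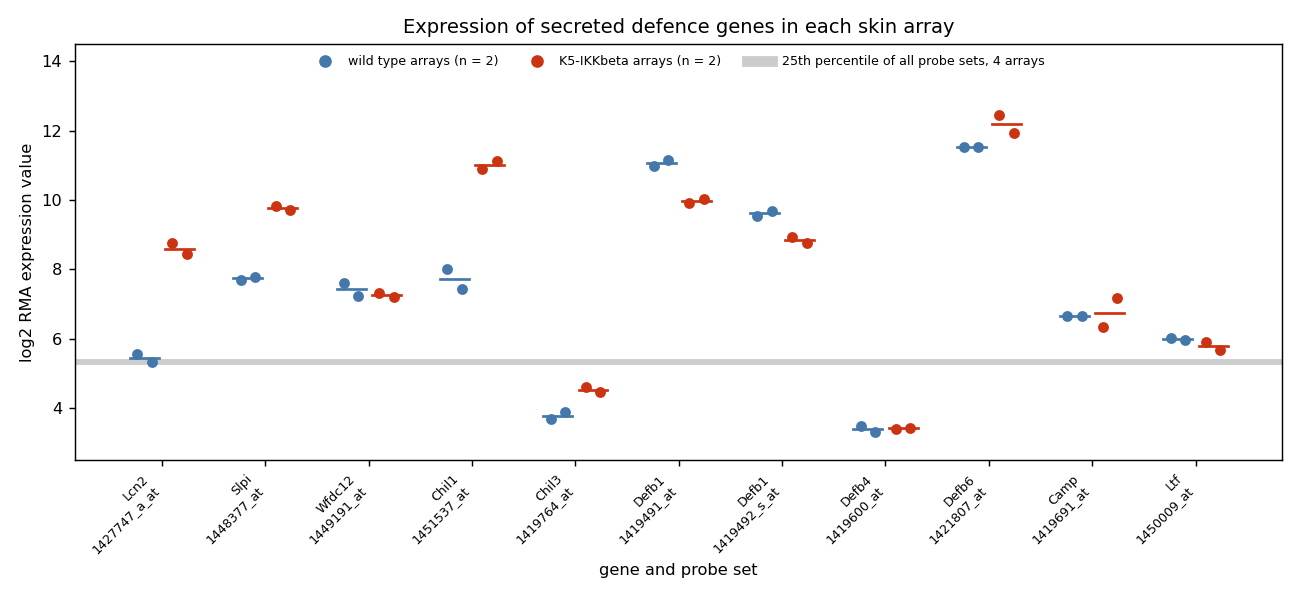
Log2 expression of each of the 11 probe sets (x axis) on the 2 wild type arrays (blue) and the 2 K5-IKKbeta arrays (red), with a line at each group's mean and a grey band at the 25th percentile of all probe sets. The K5-IKKbeta points of Lcn2, Slpi and Chil1 lie well above the wild type points, both Defb1 probe sets lie below them, and all Chil3 and Defb4 points lie under the grey band.

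Among the iron-withholding proteins, only Lcn2 passed the threshold. Lcn2 (probe set 1427747_a_at) measured 5.56 and 5.32 in wild type and 8.76 and 8.43 in K5-IKKbeta skin. Both K5-IKKbeta arrays were high, and the smallest gap between arrays of the 2 genotypes, 2.87, was far larger than the gaps of 0.241 and 0.331 within them. Lcn2 rose by 3.16 on the log2 scale (SE 0.15, 95% interval 2.79 to 3.53, adjusted p = 0.000115), rank 25 among rises of the 45101 probe sets. Wild type skin was close to background for Lcn2, at percentile 26.4 of the probe sets of an array on average, against 73.9 in K5-IKKbeta skin.

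Ltf, lactoferrin (1450009_at), measured 6.02 and 5.97 in wild type and 5.92 and 5.67 in K5-IKKbeta skin. The groups did not overlap, but by 0.05 only, and all 4 values lay in the dimmer part of the arrays. The log2 fold change of -0.20 did not pass the threshold (95% interval -0.51 to 0.10, adjusted p = 0.352).

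Of the WAP-domain inhibitors, Slpi rose and Wfdc12 did not pass the threshold. Slpi (1448377_at) measured 7.68 and 7.79 in wild type and 9.83 and 9.72 in K5-IKKbeta skin. Its arrays agreed within each genotype to 0.108 and 0.115 on the log2 scale, and the genotypes were 1.92 apart at the nearest arrays. Slpi rose by 2.04 on the log2 scale (SE 0.11, 95% interval 1.76 to 2.31, adjusted p = 0.000163). Wfdc12 (1449191_at), an antibacterial WAP protein encoded near Slpi on chromosome 2, measured 7.60 and 7.24 in wild type and 7.31 and 7.21 in K5-IKKbeta skin. The groups overlapped, with a log2 fold change of -0.16 (95% interval -0.51 to 0.19, adjusted p = 0.552). The difference between Slpi and Wfdc12 was not tested.

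Both chitinase-like genes were called higher, at very different signal. Chil1 (1451537_at), a secreted glycoprotein made in inflamed and remodelling tissue, measured 8.02 and 7.43 in wild type and 10.90 and 11.11 in K5-IKKbeta skin. The wild type arrays differed by 0.583, the widest wild type gap of the 11 probe sets, and still lay 2.88 below the lower K5-IKKbeta array. Chil1 rose by 3.28 (SE 0.20, 95% interval 2.80 to 3.76, adjusted p = 0.00024), rank 17 among all rises. The intervals of Chil1 and Lcn2 overlap.

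Chil3 (1419764_at), a product of myeloid cells also called Ym1, measured 3.67 and 3.89 in wild type and 4.61 and 4.45 in K5-IKKbeta skin. All 4 arrays lay below the 25th percentile of their probe sets (5.27 to 5.38), taken here as a floor for signal near background, so no fold is given. Chil3 rose by 0.75 (SE 0.13, adjusted p = 0.0107), a call that did not survive removal of either wild type array (adjusted p = 0.102 without the first and 0.052 without the second). The probe set shared by Chil4 and Chil3 (1425451_s_at) measured 5.45 and 5.32 in wild type and 5.47 and 5.34 in K5-IKKbeta skin. It did not pass the threshold (log2 fold change 0.02, adjusted p = 0.931), so the 2 probe sets that can bind Chil3 gave different calls.

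The beta-defensins did not move together. Defb1, made constitutively by many epithelia, was lower by both of its probe sets. Probe set 1419491_at measured 10.98 and 11.16 in wild type and 9.92 and 10.03 in K5-IKKbeta skin, and both wild type arrays were at least 0.94 above both K5-IKKbeta arrays. This gave a log2 fold change of -1.10 (SE 0.12, 95% interval -1.38 to -0.81, adjusted p = 0.00207). Probe set 1419492_s_at, whose ending marks sequence shared with other transcripts, measured 9.55 and 9.69 against 8.93 and 8.75. It gave a log2 fold change of -0.78 (SE 0.12, adjusted p = 0.00753), a call that likewise ended when either wild type array was removed (adjusted p = 0.054 and 0.088). Both probe sets read the same RNA pools and are not independent evidence.

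Defb6 (1421807_at) was bright in both genotypes, at percentiles 97.4 and 98.5 of the probe sets. It measured 11.52 and 11.52 in wild type and 12.45 and 11.93 in K5-IKKbeta skin. The K5-IKKbeta arrays were both higher, but 0.519 apart. The log2 fold change of 0.67 (SE 0.18, 95% interval 0.24 to 1.09) just missed the threshold (adjusted p = 0.0506). It passed under 6 of 14 alternative settings, among them the filter on dim probe sets at the 40th percentile (adjusted p = 0.038). In each of these but leaving out K5-IKKbeta 2 the log2 fold change stayed at 0.67. Those settings differ only in the probe sets tested or in the moderation, so they are not separate evidence. Leaving out K5-IKKbeta 2 gave 0.93, but its residual spread then came from the wild type arrays alone, which were 0.005 apart. The intervals of Defb6 and Defb1 lie on opposite sides of 0; the difference between them was not tested.

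Defb4 (1419600_at), the mouse relative of an inducible human beta-defensin, measured 3.47 and 3.31 in wild type and 3.41 and 3.42 in K5-IKKbeta skin. All arrays lay below the floor and the groups overlapped (log2 fold change 0.02, adjusted p = 0.943). Defb4 RNA below what the array detects would not be visible here.

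Camp (1419691_at), the cathelicidin, differed more within K5-IKKbeta skin than between genotypes. Both wild type arrays hold the same value, 6.64, to all deposited digits, and the K5-IKKbeta arrays measured 6.32 and 7.18, on either side of it. Camp had a log2 fold change of 0.11 (95% interval -0.51 to 0.73, adjusted p = 0.843). Its direction rested on 1 array: without K5-IKKbeta 1 it was 0.53 and without K5-IKKbeta 2 it was -0.32. The only spread left within a group in these fits is that of the identical wild type values, so no p-value is given. Identical values on both wild type arrays were found for 208 probe sets.

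**Figure D2:**
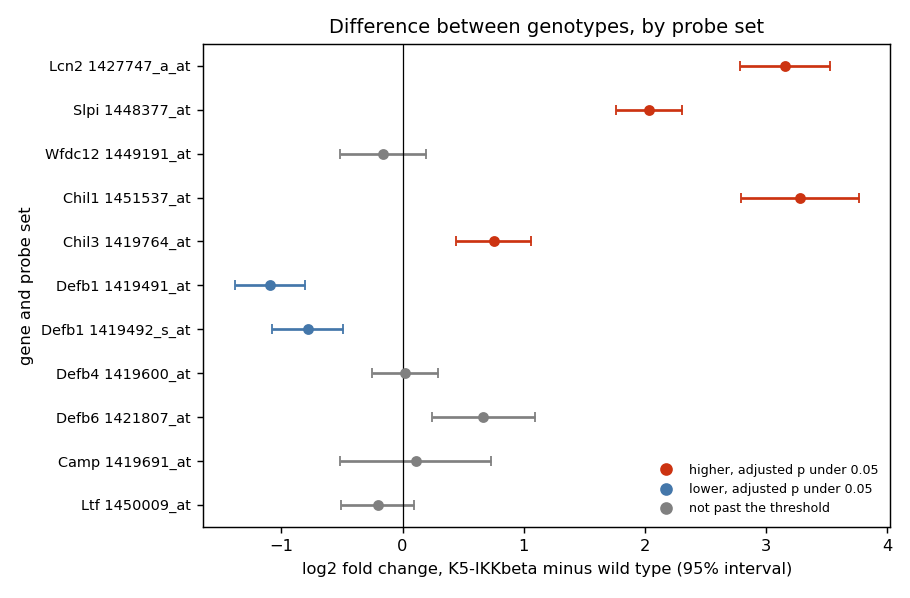
Log2 fold change of each probe set, K5-IKKbeta minus wild type, with its 95% interval from limma; red marks calls higher, blue calls lower and grey those not past the threshold. Chil1, Lcn2 and Slpi stand apart at 3.28, 3.16 and 2.04, and the grey interval of Defb6 lies above 0 although its adjusted p is 0.0506.

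The promoters of the 3 genes called higher at clear signal are shown. These genes were picked by their calls, and a role of the motifs in their rise was not tested. The RefSeq promoter windows (build GRCm38.p6) run from 250 bases before the annotated start to 50 after it. Windows were found for 8 of the 10 genes, all but Defb1 and Defb4. The 250 bases before the start are printed 5′ to 3′ on the gene's strand, with matches to the kappaB consensus of NF-kB or to the C/EBP motif TTNCNNAA in capitals.
Lcn2 (chr2:32387740-32387989, minus strand): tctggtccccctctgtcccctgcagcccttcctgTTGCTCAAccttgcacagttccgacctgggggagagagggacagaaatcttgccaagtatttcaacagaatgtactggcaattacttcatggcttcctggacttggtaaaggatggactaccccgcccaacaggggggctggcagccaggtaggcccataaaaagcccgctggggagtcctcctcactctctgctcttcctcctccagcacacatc
Slpi (chr2:164356508-164356757, minus strand): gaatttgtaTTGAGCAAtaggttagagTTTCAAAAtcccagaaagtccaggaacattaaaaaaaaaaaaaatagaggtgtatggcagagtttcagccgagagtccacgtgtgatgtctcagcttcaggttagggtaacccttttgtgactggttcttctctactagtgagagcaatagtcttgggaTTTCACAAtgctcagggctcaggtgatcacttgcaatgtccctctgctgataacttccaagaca
Chil1 (chr1:134181906-134182155, plus strand): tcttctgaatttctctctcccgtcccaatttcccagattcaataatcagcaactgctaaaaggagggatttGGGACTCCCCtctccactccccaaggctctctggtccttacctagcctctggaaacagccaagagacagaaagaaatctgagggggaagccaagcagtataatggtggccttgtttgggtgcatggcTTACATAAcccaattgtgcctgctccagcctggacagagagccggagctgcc

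The capitals in the Lcn2 window, TTGCTCAA, and all capitals in the Slpi window are C/EBP matches. In the Chil1 window the first capitals, GGGACTCCCC, are a kappaB match on both strands, 179 to 170 bases before the start, and the second, TTACATAA, a C/EBP match. On both strands of the 300 bases, kappaB matches were found in 3 of the 8 windows, against 8.46% of 32851 windows of the same length. They were in Chil1, in Defb6 at 180 to 171 bases before the start, and in Camp at 36 to 45 bases after it. Of these genes Chil1 was called higher, and Defb6 and Camp were not called. C/EBP matches were found in 7 of 8 windows, against 40.7% of all. There was 1 position in Lcn2 and Chil1, 2 in Wfdc12 and Ltf, and 3 in Slpi, Chil3 and Defb6. Of these genes, Wfdc12, Ltf and Defb6 were not called. The STAT motif TTCNNNGAA was found in Chil3 alone (8.3% of all windows), and the interferon-stimulated response element in none of the 8 (3.44%). No kappaB match overlapped a C/EBP match. A match is a description of letters; windows without one say nothing of binding elsewhere or at looser sites.

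**Figure D3:**
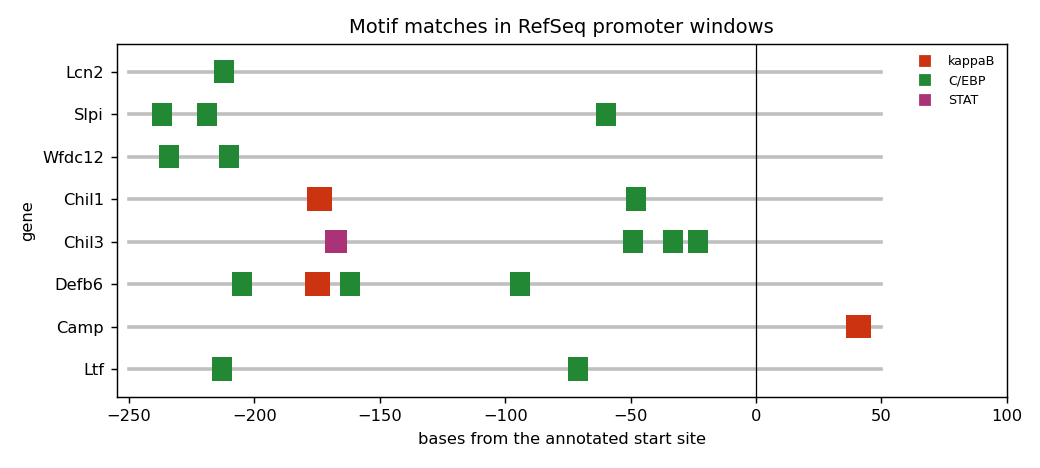
Positions of motif matches (coloured boxes, to scale) in the 8 promoter windows, by distance in bases from the annotated start site. Boxes for kappaB lie at similar distances before the start in Chil1 and Defb6 and after the start in Camp. Lcn2, Slpi, Wfdc12 and Ltf hold C/EBP boxes only.

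The nearest genes with a probe set on either side of each member were also read, in the order of the RefSeq genes. On chromosome 1 both neighbours of Chil1 were higher: the chitinase Chit1 at 2.04-fold (adjusted p = 0.011) and Mybph, a myosin-binding protein, at 3.67-fold (adjusted p = 0.0029). Chit1 measured 9.04 and 9.01 in wild type and 10.31 and 9.80 in K5-IKKbeta skin, and its call was lost when either wild type array was left out (adjusted p = 0.084 and 0.095). Beside Slpi the neighbours did not rise: Matn4, a matrix protein, was 2.19-fold lower (adjusted p = 0.0011), and the seminal vesicle gene Svs5 had -0.42 on the log2 scale (adjusted p = 0.21, and 0.016 without K5-IKKbeta 2). Wfdc5 and Wfdc15a, WAP-domain genes on either side of Wfdc12, differed by 0.45 (adjusted p = 0.067, and 0.030 without K5-IKKbeta 2) and 0.03 (adjusted p = 0.95). Next to Lcn2, 1110008P14Rik had a log2 fold change of -0.65 (adjusted p = 0.014, lost without wild type 1 at 0.085 and without wild type 2 at 0.13) and Ptges2, a prostaglandin synthase, 0.27 (adjusted p = 0.17). Beside Ltf, the chemokine receptor-like Ccrl2 was 1.93-fold higher (adjusted p = 0.007, lost at 0.052 and 0.080 without either wild type array). None of the neighbours of Camp, Defb1, Defb4, Defb6 and Chil3 was called.

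Related families were taken from lists, each gene at its brightest probe set. Of such genes, 14.3% of 18194 were called higher and 6.64% lower. Some genes are in several lists, among them S100a8, S100a9, Pglyrp1, Lyz2, Mrc1, Ctsg, Elane and Prtn3, so the lists are not independent. Of 31 other antimicrobial genes 27 had a probe set, 7 rose and 20 did not pass the threshold (median log2 fold change 0.06, against 0.03 over all genes). Pglyrp2, which cleaves bacterial peptidoglycan, was at least 27.5-fold higher. The calcium-binding protein S100a9 measured 6.69 and 6.70 in wild type and 9.27 and 9.04 in K5-IKKbeta skin, a 5.49-fold rise (adjusted p = 0.00012). Its usual partner in the heterodimer calprotectin, S100a8, measured 9.94 and 10.06 against 10.14 and 9.97 and did not pass the threshold (log2 fold change 0.06, adjusted p = 0.82). The lysozymes Lyz2 and Lyz1 were 2.79-fold and 2.68-fold higher; they are close copies, and their probe sets may share transcripts. The fold written as at least is taken against the 25th percentile, since both wild type arrays lay below it. Without wild type 1, and likewise without wild type 2, 5 of the 27 rose.

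Of 44 other beta-defensins only 17 had a probe set, with Defb14 among those without one, and 12 of the 17 lay below the floor on all arrays. The single call was Defb3, an inducible beta-defensin, at values below the floor in both groups (log2 fold change 0.44, adjusted p = 0.045), and it was lost when any array was left out (adjusted p = 0.051 to 0.27). Of 14 other WAP-domain genes 2 rose and 2 fell. Wfdc17 was 1.70-fold and Wfdc21 1.67-fold higher, both lost without wild type 1 or wild type 2 (adjusted p = 0.057 to 0.069), while Wfdc18 was 2.38-fold lower. Wfikkn1, a binding protein for growth factors of the TGF-beta family, had a log2 fold change of -0.49 (adjusted p = 0.031) that was lost when any array was left out. Of 6 other chitinase family genes Chit1 rose and Ovgp1, an oviduct glycoprotein, was 1.59-fold lower (adjusted p = 0.024, lost without either wild type array and without K5-IKKbeta 2). Of 17 other lipocalins, carriers of small molecules, Apod rose 1.80-fold (adjusted p = 0.0059) and Orm1 1.42-fold (adjusted p = 0.024), and Ptgds, a prostaglandin D synthase, fell 2.38-fold (adjusted p = 0.0024). The call of Apod was lost without wild type 1, and that of Orm1 without wild type 1, wild type 2 or K5-IKKbeta 2.

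**Figure D4:**
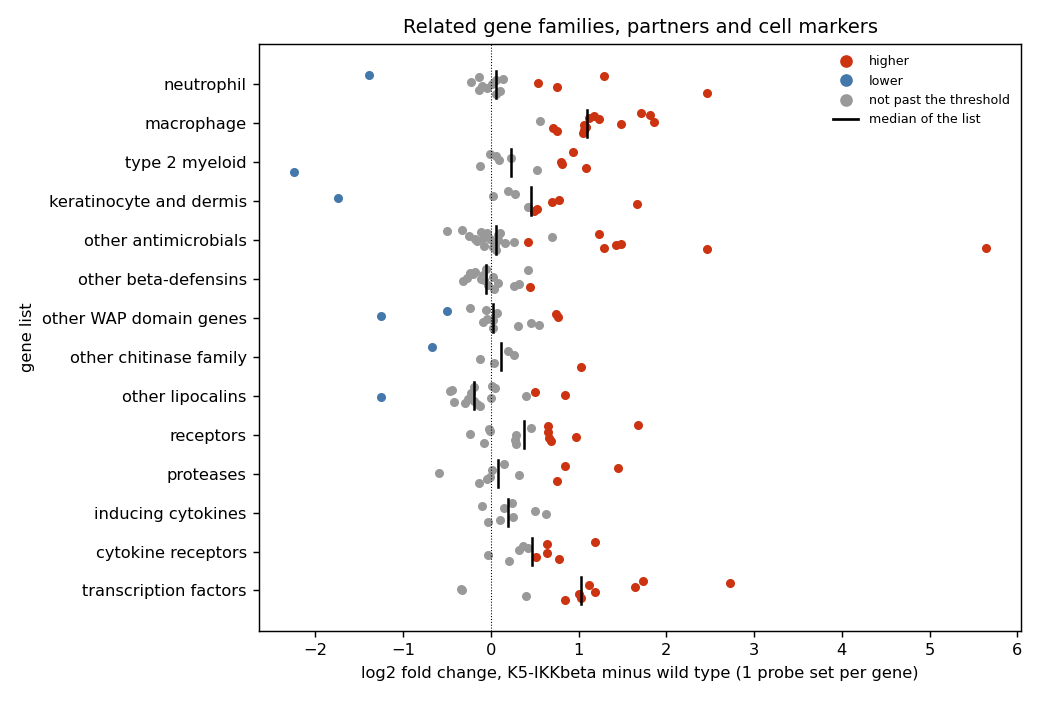
Log2 fold change of every gene with a probe set in 14 lists (rows), K5-IKKbeta minus wild type, with a black line at each list's median; red and blue mark calls higher and lower, and grey those not past the threshold. Transcription factors and macrophage markers lie mostly to the right of 0, with medians of 1.03 and 1.10, while beta-defensins and neutrophil markers centre near 0, at -0.05 and 0.06. Genes held by several lists are drawn in each.

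Receptors and partners of the members rose in part: of 14 with a probe set, 6 were higher and none lower (median log2 fold change 0.38). Plscr1, a membrane protein that binds Slpi, was 3.20-fold higher (adjusted p = 0.0013). Il13ra2, a receptor for Chil1, was 1.96-fold higher (adjusted p = 0.0042), Fpr2, a receptor for the cathelicidin peptide, 1.61-fold (adjusted p = 0.0071) and Ccr6, a receptor for beta-defensins, 1.58-fold (adjusted p = 0.049). Slc22a17, described as a receptor of Lcn2, had a log2 fold change of 0.29 (adjusted p = 0.13), and the endocytic receptor Lrp2 lay below the floor on all arrays; both were singled out with their values known. Without wild type 1, 2 of the 14 rose and without wild type 2 only Plscr1 did; the calls of Fpr2 and Ccr6 were lost in both cases.

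Among 10 proteases and related genes, 3 rose: Cma1, a mast cell chymase, at 2.74-fold, Tpsb2, a mast cell tryptase, at 1.79-fold, and Ctsg, a granule protease that Slpi inhibits, at 1.68-fold (adjusted p = 0.004, 0.0083 and 0.027). Ctsg was lost without either wild type array and Tpsb2 without wild type 2. Klk7, a skin kallikrein, measured 12.07 and 12.25 in wild type and 11.78 and 11.38 in K5-IKKbeta skin and just missed the threshold (log2 fold change -0.58, adjusted p = 0.056); it passed without K5-IKKbeta 1 (adjusted p = 0.016). Klk7 was singled out with its value known.

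Of the cytokines known to induce these genes, 8 of 14 had a probe set and limma called 0 of the 8. Il17c, Il17f, Il22, Il36a, Il36b and Il36g had no probe set of their own, so they were not read. Ifng lay below the floor on all arrays. Of the 8, 3 (37.5%) had an unadjusted p under 0.05, against 29.1% of all probe sets. Those with the smallest p were Il6 (log2 fold change 0.50, adjusted p = 0.052, below the floor on all arrays) and Tnf (0.63, adjusted p = 0.17). Tnf measured 7.13 and 6.98 in wild type and 8.11 and 7.27 in K5-IKKbeta skin, so that its direction was shared but its size rested on K5-IKKbeta 1; without K5-IKKbeta 2 it passed (adjusted p = 0.0051). Il6 passed without K5-IKKbeta 1 (adjusted p = 0.024). Of 10 receptors for these cytokines 5 rose, among them Osmr, for oncostatin M, at 2.27-fold (adjusted p = 0.0016), and Il17rc, for interleukin-17, at 1.72-fold (adjusted p = 0.0064). Il6ra and Il10rb were 1.56-fold and 1.55-fold higher (adjusted p = 0.0099 and 0.011). Without wild type 1 or wild type 2, only Osmr of the 10 was called.

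Of 11 transcription factors known to act on such promoters, 8 rose and none fell (median log2 fold change 1.03). Relb and Nfkb2, the NF-kB subunits of the alternative pathway, were 6.63-fold and 3.32-fold higher, and Bcl3, a nuclear partner of NF-kB, 3.12-fold (adjusted p = 4.5e-05, 0.00049 and 0.00059). Stat3, which transmits signals of the interleukin-6 family, was 2.27-fold higher (adjusted p = 0.00094). Without wild type 1 the count was 7, with Nfkbiz lost (adjusted p = 0.058), and without wild type 2 it was 8.

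Leukocyte markers differed by list: most macrophage genes rose, while most neutrophil genes and most genes of type 2 myeloid responses were not called. Of 14 macrophage genes 13 rose (11 without wild type 1 and 10 without wild type 2), with a median log2 fold change of 1.10. Mpeg1, Aif1, Tyrobp and Lyz2 were 3.62-fold, 3.53-fold, 3.29-fold and 2.79-fold higher. The summed level of the list on the linear scale was 6838 to 7391 in wild type and 16239.8 to 17623 in K5-IKKbeta skin. Of 15 neutrophil genes 4 rose, 1 fell and 10 were not called (median 0.06): S100a9, Pglyrp1, Ctsg and Mmp9 (the last named because it completes the count) rose, and the stefin Stfa2l1 fell 2.61-fold. Without either wild type array 2 rose. The summed level of the 15 genes was 2049 to 2152 in wild type and 2542 to 2841 in K5-IKKbeta skin. This sum is weighted to its brightest genes, S100a8 and, in K5-IKKbeta skin, S100a9. It therefore does not show a general rise of the list. Of 11 genes of type 2 myeloid responses, with which Chil3 is usually grouped, 4 rose, among them Mrc1, Alox15 and Ccl17 at 2.12-fold, 1.91-fold and 1.76-fold, and Arg1, which breaks down arginine, fell 4.73-fold. Without wild type 2 none of the 11 was called higher.

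Markers of the epidermis moved as well. Of 10 keratinocyte and dermis genes 5 rose and 1 fell: Krt1, a keratin of the suprabasal layers, was 3.17-fold, Lor, the main protein of the cornified envelope, 1.71-fold and Krt10, the partner of Krt1, 1.62-fold higher, and Ivl, an early envelope protein, was 3.35-fold lower. Without either wild type array Krt1 was the only one of the 10 called higher and Ivl stayed lower. Trp63, a transcription factor of keratinocytes, had a log2 fold change of 0.02 (adjusted p = 0.94). In whole skin, more cells of a type and more RNA per cell cannot be told apart, and the part of leukocytes and of epidermal layers in the changes of Lcn2, Slpi, Chil1 and Defb1 was not tested.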

How the data were processed

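Total RNA of pooled skin was extracted with Trizol and columns and hybridised as biotin-labelled cRNA, per the labels' protocols. The authors deposited 1 RMA value per probe set and array, per the submitters' processing notes, where neither a version nor a log base appears. The deposited values run from 2.65 to 14.7 and were read as log2 from that range. Symbols come from the platform annotation: 1 symbol for 34958 probe sets, more for 932, none for 9211. By identifier, 34754 probe sets matched RefSeq (GRCm38.p6).

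A model with group only was fitted to all 45101 probe sets (limma 3.58.1, R 4.3.3, lmFit and eBayes, two-sided, 2 residual and 4.46 prior degrees of freedom), with no filter on dim values, so that every member was tested; 8 of 11 member probe sets had a mean above the 40th percentile (6.33), Lcn2 only through its K5-IKKbeta arrays. A fold is given as a bound when neither array of the dimmer group reached its 25th percentile. The number of arrays limits the precision. On simulated data the fit recovered 0 of 67 changes of 1.5-fold, 34 of 67 of 2-fold and 65 of 66 of 4-fold. A gene that did not pass the threshold may therefore still differ by such small folds. The simulation gave 100 calls, against 7350 here, so its rates need not hold here. Protein sequences were not used here.

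Beside the members, up to 4 called genes of largest change per list were named, or the 2 of smallest p where none was called, and the nearest neighbours of members. Members, lists and tests were chosen with earlier results of these data known. Alternatives were other normalizations, filters, 1 probe set per gene, no shared-sequence probe sets, other moderation, treat, a replicate block and each array left out.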

Additional observations from a re-analysis of the deposited data

How the results depend on the processing

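Chil1, Slpi and the brighter Defb1 probe set kept direction and call in 13 of 14 alternative settings and Lcn2 in 11 of the 12 that tested it. Filters, 1 probe set per gene, no shared-sequence probe sets, other moderation, treat and the replicate block left each log2 fold change unchanged. Direction could not change there, so those settings are not separate evidence of it. Lcn2 entered the lower filter on dim probe sets and the setting with 1 probe set per gene only through its K5-IKKbeta arrays. Its wild type mean, 5.44, lay below the cutoff of 6.33, so those settings are not separate evidence for Lcn2. The exception for all of these probe sets was no moderation across probe sets, with 2 residual degrees of freedom. There limma's ordinary test called 0 members higher and 0 lower and 19 of all probe sets, while 7 of the 11 had an unadjusted p under 0.05 with moderation (29.1% of all probe sets) and 6 without it (20.6% of all). The Chil3 and second Defb1 calls were lost in 3 settings each. All probe sets called numbered 7350 in the main setting, 4436 with 1 probe set per gene (fewer tested) and 3612 against a 1.2-fold change. With 1 probe set per gene, and with shared-sequence probe sets left out, 1 member was called lower, since 1 Defb1 probe set drops out by construction. Leaving out each array in turn gave 3 to 5 members higher, 1 to 2 lower and 2530 to 7114 probe sets called; the lone array left in a group is then assumed to vary like the other group. Of the 5 genes not called, Ltf and Defb6 kept their direction in all alternatives that tested them, and Camp, Defb4 and Wfdc12 did not: log2 fold changes with an array left out ran from -0.32 to 0.53 for Camp, -0.060 to 0.10 for Defb4 and -0.34 to 0.020 for Wfdc12, and with each array centred on its median Defb4 was at -0.020. Same-numbered arrays share only a number in the labels (correlation of deviations 0.25 across probe sets); with the replicate block 4 members were higher, 2 lower and 7139 probe sets called, and no member's call changed.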

Other observations

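The probe set of Ang, an antimicrobial ribonuclease in the list of other antimicrobials, separated arrays by their number and not by genotype. It measured 9.05 and 5.29 in wild type 1 and 2 and 9.40 and 5.48 in K5-IKKbeta 1 and 2. Of all probe sets, 3 were more than 2 higher (log2) in number 1 than in number 2 in both genotypes, 0 were more than 2 higher in number 2 in both, and none of the 3 was a member. Ang was picked after its values were seen.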
